A study of Homo sapiens with 6 samples.

Results

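*SMARCA2*, *PGBD4*, *TEX261* and *AJUBA* are 4 of the 26485 genes in the count table, chosen because a transcript of each shares a stretch of 15 nucleotides, in either orientation, with a silencer used against the long noncoding RNA (lncRNA) *HSALNG0134318*. The criterion is one of sequence and uses no read counts, but other genes meet it too, and the 4 were chosen with earlier results of these data known. None of these genes is the intended target, which lies on chromosome 22, whereas *SMARCA2* lies on chromosome 9, *PGBD4* on chromosome 15, *TEX261* on chromosome 2 and *AJUBA* on chromosome 14. RNA-seq was performed on HEK293 cells, a line derived from human embryonic kidney, in 3 knockdown cultures that received the *HSALNG0134318* Smart Silencer and 3 control cultures. A Smart Silencer mixes small interfering RNAs (siRNAs) with antisense oligonucleotides and was delivered by transient transfection with Lipofectamine RNAiMAX. The labels give the controls as WT in the genotype and NC in the description, and what the controls received is not given in the sources used here. Knockdown replicates 1, 2 and 3 carry the culture numbers 1, 4 and 5, and control replicates 1, 2 and 3 carry the numbers 10, 11 and 1.

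An siRNA loads 1 of its strands, the guide, into an Argonaute protein, which cleaves transcripts that pair with the guide over nearly its whole length and represses transcripts that pair with its seed, nucleotides 2 to 8 of the guide, mostly in 3′ untranslated regions (UTRs). An antisense oligonucleotide with a DNA core directs RNase H to the RNA it pairs with, in introns as well as exons. Partial pairing with other transcripts is a known source of unintended knockdown for both kinds of molecule, and sequence searches of this kind are used to list candidate transcripts. Which of the 6 listed silencers were siRNAs and which were antisense oligonucleotides is not given in the sources used here.

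The shared stretches were located by an exact search of all GENCODE release 44 transcripts and of hg38. They are shown here because they are the basis on which the 4 genes were chosen. Each member is printed as 30 bases of its transcript, 5′ to 3′, followed by the reference bases at the chromosome 22 site of each silencer that shares the stretch, read on the strand that aligns with the transcript. Capitals mark the shared stretch, which for *SMARCA2* is 15 bases against the listed letters of silencer 1 and 13 against the reference bases.
SMARCA2: cattttcCTCCTAAGATTTTCTcatcaacc
silencer 1 site: ccaCTCCTAAGATTTTtct
PGBD4: ttccactGTATATACTCCAAACagaaacat
silencer 2 site: tacGTATATACTCCAAACc
silencer 4 site: acGTATATACTCCAAACcac
TEX261: gcgttccAGTGATAGGGTCTTActatgttg
silencer 3 site: AGTGATAGGGTCTTAaagg
silencer 5 site: gAGTGATAGGGTCTTAaagg
AJUBA: agttaggAGGAAAAGCACAAAGtccaggtt
silencer 6 site: atgaaAGGAAAAGCACAAAG

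The silencer sites lie on hg38 at chr22:22307378-22307396 for silencer 1, chr22:22307418-22307436 for silencer 2, chr22:22307525-22307543 for silencer 3, chr22:22307416-22307435 for silencer 4, chr22:22307525-22307544 for silencer 5 and chr22:22307352-22307371 for silencer 6. All 6 silencers are listed as plus-strand sequence, the strand of the annotated genes at the site. Silencers 2 and 4 overlap each other, as do silencers 3 and 5, so the stretch of *PGBD4* and that of *TEX261* are each shared with a pair of silencers but represent 1 site. The strand of *HSALNG0134318* itself is not given in the sources used here, and the plus strand is assumed below. The stretch of *SMARCA2* has the listed orientation, that is, the letters of the target under this assumption. The strand pairing with it would then be the one that pairs with the target. The stretches of *PGBD4*, *TEX261* and *AJUBA* have the reverse orientation, so that the strand pairing with them would, under the same assumption, carry the target's own letters.

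The letters of the silencers were read from a page image, and those of silencer 1 do not match the genome in full. Of its 18 listed letters, the first 16 match chromosome 22, where the reference holds a run of 5 T bases and the listed letters hold 4. With the listed letters the stretch shared with *SMARCA2* is 15 nucleotides, and with the 19 reference bases at the site it is 13. The place of *SMARCA2* among the 4 genes therefore rests on the listed letters of silencer 1. Silencers 2 to 6 match chromosome 22 over their full length. Silencers 2 and 4 match the genome in full at 1 site each, whereas silencers 3 and 5 match it at 10 sites each and silencer 6 at 12. Transcripts of the lncRNA gene ENSG00000291142 on chromosome 2, which is not a row of the table under that name, share 20 nucleotides with silencers 5 and 6. Over a whole silencer aligned in register with the transcript and without gaps, *PGBD4* matches 15 of the 19 bases of silencer 2, *TEX261* matches 15 of the 19 bases of silencer 3, and *AJUBA* matches 16 of the 20 bases of silencer 6. *SMARCA2* matches 13 of the 19 reference bases at the site of silencer 1.

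The stretches fall in different regions of the transcripts. In *PGBD4* (ENSG00000182405.6, chr15:34102083-34108686, plus strand), the stretch lies in the coding sequence of the only annotated transcript, at chr15:34103249-34103263. In *SMARCA2* (ENSG00000080503.25, chr9:1980290-2193624, plus strand), it lies in the 3′ UTR of a coding transcript of 7061 nucleotides with a short coding sequence, at chr9:2045692-2045706, and occurs in 3 of 72 transcripts. In the canonical *SMARCA2* transcript this position is intronic, 1523 bases from the nearest exon. In *TEX261* (ENSG00000144043.13, chr2:70968325-70994873, minus strand), the stretch spans an exon junction of a transcript annotated for nonsense-mediated decay and is found in 1 of 7 transcripts. Its first 2 bases end 1 exon at chr2:70976195-70976196 and its other 13 begin the next at chr2:70972488-70972500. At its nearest base, the stretch is 9746 bases from the canonical transcript. In *AJUBA* (ENSG00000129474.17, chr14:22971177-22982551, minus strand), it lies in the 5′ UTR of 2 of 7 transcripts at chr14:22976814-22976828, in an intron of the canonical transcript 102 bases from an exon. *PGBD4* is thus the only member whose canonical transcript holds the stretch, and the canonical transcripts of the other 3 share fewer than 12 nucleotides with any silencer. The count table holds 1 value per gene, so transcripts with and without a stretch could not be told apart.

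The 6 libraries held between 13900965 and 16869948 counts, and 14877 genes passed the filter on low counts, all 4 members among them. The HEK293-expressed genes *PAX2*, *LHX1*, *NEFL*, *NEFM*, *VIM*, *KRT8* and *KRT18* were detected in every culture, the lowest value being 97.7 normalized counts for *PAX2*. Normalized counts are counts scaled to the mean effective library size, and called genes are those with a p under 0.05 after Benjamini-Hochberg adjustment of edgeR's quasi-likelihood F test over all genes tested. *HSALNG0134318* is not a row of the table under that name. *BMS1P20*, a pseudogene listed in the table whose span includes the silencers' sites, had 494, 399 and 467 normalized counts in control replicates 1, 2 and 3 and 263, 257 and 268 in knockdown replicates 1, 2 and 3, a log2 fold change of -0.79 with a standard error (SE) of 0.12 (adjusted p = 0.0030). The longest stretch that annotated transcripts of *BMS1P20* share with a silencer is 13 nucleotides, so none of them holds a whole silencer site. Whether its counts follow the targeted RNA was not tested. *BMS1P20* also shares sequence with *BMS1* and other copies, so its counts are uncertain. The spread was unequal, since 72.7% of the tested genes, and all 4 members, had a larger SD among the controls than among the knockdown cultures. The series and the paper's methods describe the 3 cultures of each group as biological replicates from independent experiments. The p values from edgeR rest on the spread between these cultures, with the spread of each gene moderated by that of the other genes.

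Of the 4 genes, 1 was called, *TEX261*, and it was higher in the knockdown group. Over all genes tested, 10% were called in either direction, 4.64% lower and 5.40% higher. No member was called lower, and none of the other 3 had an unadjusted p under 0.05 in edgeR. The log2 fold changes of the members ran from -0.17 to 0.35 with a median of 0.07, beside a median of -0.02 and a median size of 0.20 over all genes tested.

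*TEX261* encodes a membrane protein of the early secretory pathway related to the cargo adaptors of COPII vesicles, which carry proteins from the endoplasmic reticulum to the Golgi. It had 1590, 1685 and 1983 normalized counts in control replicates 1, 2 and 3, and 2298, 2227 and 2191 in knockdown replicates 1, 2 and 3. Every knockdown culture lay above every control culture, as was the case in one direction or the other for 32.2% of the tested genes, and the controls were spread more widely. The mean rose from 1752 ± 205 to 2239 ± 54.4 (SD, n = 3 cultures each), a 1.28-fold difference. The log2 fold change was 0.35 (SE 0.10, 95% interval 0.14 to 0.57), with an adjusted p = 0.043 from edgeR. The two-sided exact permutation p was 0.1, which is the smallest that 3 cultures against 3 can give. The log2 fold change was positive in all 13 alternative settings, but the call was lost in 5 of them. The adjusted p from edgeR was 0.15 without knockdown replicate 1, 0.15 without knockdown replicate 2, 0.14 without knockdown replicate 3, 0.13 without control replicate 1 and 0.071 in a fit blocked on replicate number. Without control replicate 3, the highest control, the log2 fold change was 0.46 with an adjusted p = 0.010.

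*SMARCA2* encodes BRM, one of the alternative ATPases of the SWI/SNF chromatin remodelling complexes. Its normalized counts were 2112, 1750 and 2244 in control replicates 1, 2 and 3, and 2263, 2272 and 2163 in knockdown replicates 1, 2 and 3. The groups overlapped, since control replicate 3 lay above knockdown replicate 3, and control replicate 2 was the lowest of the 6 cultures. The means were 2035 ± 256 in the control and 2233 ± 60.5 in the knockdown group (SD, n = 3 each), with a log2 fold change of 0.13 (SE 0.10, 95% interval -0.09 to 0.36). The adjusted p was 0.43 from edgeR and the two-sided exact permutation p was 0.2. The difference of the means depended on control replicate 2, without which the log2 fold change was 0.04. The lower end of the interval corresponds to a small decrease, but the interval holds only for the count of the whole gene. The stretch occurs in 3 of 72 transcripts, and a change of those alone was not tested.

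*PGBD4* encodes a protein derived from a piggyBac transposase, and was the member whose single annotated transcript carries the stretch in its coding sequence. It was the least abundant of the 4 genes, with 118, 80.3 and 99.8 normalized counts in control replicates 1, 2 and 3 and 96.4, 93.9 and 107 in knockdown replicates 1, 2 and 3. All 3 knockdown values lay between the lowest and the highest control. The means were nearly equal, at 99.5 ± 19.02 and 99.2 ± 7.16 (SD, n = 3 each), and the log2 fold change of -0.0017 had a SE of 0.19. The adjusted p was 1.0 from edgeR and the two-sided exact permutation p was 1. The 95% interval ran from -0.43 to 0.42, so at this depth and spread a change of up to that size in either direction was not excluded.

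*AJUBA* encodes a LIM domain protein of cell junctions that binds LATS kinases and restrains Hippo signalling. It had 194, 221 and 114 normalized counts in control replicates 1, 2 and 3, and 169, 150 and 152 in knockdown replicates 1, 2 and 3. The knockdown values again lay inside the range of the controls, which differed among themselves more than for any other member, with control replicate 3 the lowest culture and control replicate 2 the highest. The means were 176 ± 55.6 and 157 ± 10.1 (SD, n = 3 each), with a log2 fold change of -0.17 (SE 0.22, 95% interval -0.65 to 0.31) and an adjusted p = 0.66 from edgeR. The two-sided exact permutation p was 0.6. The value turned on single controls, since it was -0.40 (adjusted p = 0.11 from edgeR) without control replicate 3 and 0.03 without control replicate 2.

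**Figure D1:**
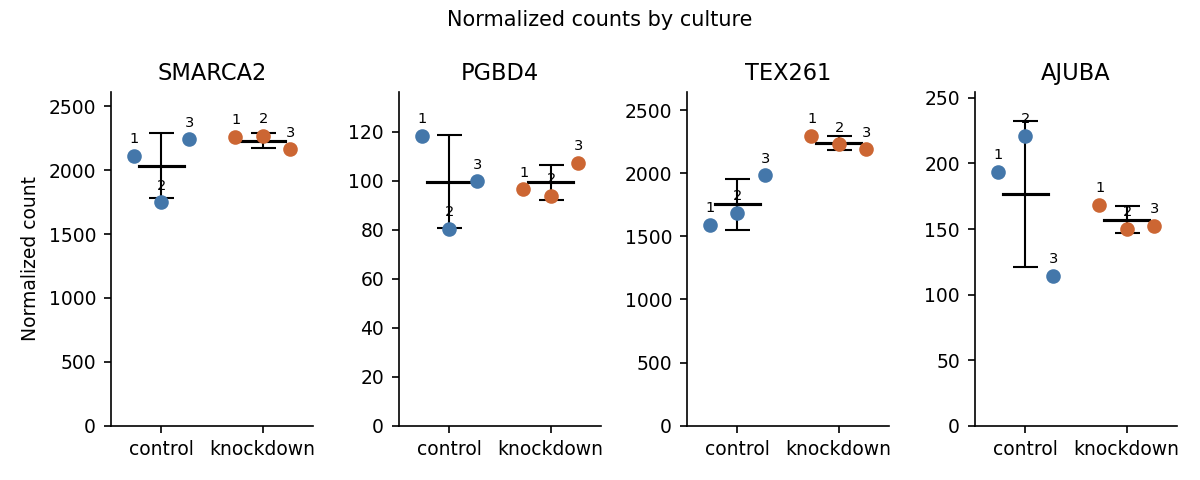
Normalized counts of the 4 genes in each culture, with the replicate number above each point, the group mean as a horizontal line and bars of 1 SD (n = 3 cultures per group, axes from 0). The groups are separate for *TEX261*, with 1590 to 1983 in controls and 2191 to 2298 after knockdown, and overlap for the other 3 genes.

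**Figure D2:**
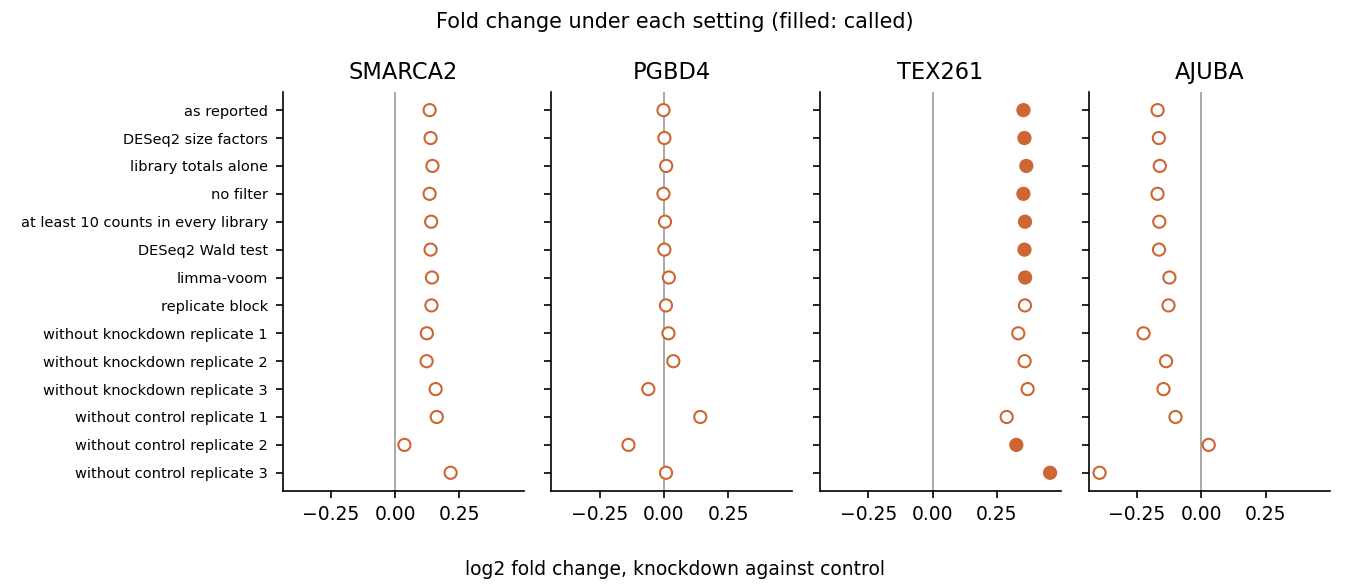
Log2 fold change of each gene, knockdown against control, as reported and under 13 other settings, with filled points where the adjusted p was under 0.05. *TEX261* stays between 0.29 and 0.46 and is filled in the reported fit and 8 alternatives, *PGBD4* lies on either side of 0, and *SMARCA2* and *AJUBA* are filled in none.

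Levels of the genes can be compared only per length. Per kilobase of annotated exon, the control mean was 379 ± 44.3 normalized counts for *TEX261*, 107 ± 13.4 for *SMARCA2*, 29.99 ± 9.46 for *AJUBA* and 15.1 ± 2.88 for *PGBD4* (SD, n = 3). This placed *TEX261* at percentile 88.7, *SMARCA2* at 56.5, *AJUBA* at 26.95 and *PGBD4* at 17.7 of the 14456 tested genes with a known length, whose median was 84.8. No culture of 1 gene reached the level of the next in this order, but the lengths sum all annotated exons, which run to 19.1 kb for *SMARCA2*, and a gene expressed from a short transcript would appear lower than it is.

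The 4 genes are a subset of those that meet the length criterion in GENCODE release 44. A stretch of at least 15 nucleotides was found in transcripts of 20 annotated genes, of which 11 were tested. Silencer 6 accounted for 16 of the 20, silencers 3 and 5 for 3, silencers 2 and 4 for 2, and silencer 1 for *SMARCA2* alone, some genes sharing stretches with more than 1 silencer. The other 7 tested genes were *NCAPD3*, with 16 nucleotides and a log2 fold change of 0.15, *MAP3K2* (0.15), *DPM1* (0.15), *NUP88* (0.07), *RABEP1* (-0.01), *CDK13* (-0.02) and *MAP4K2* (-0.13), and none of them was called or had an unadjusted p under 0.05 in edgeR. *TEX261* was thus 1 of 11 called (9.09%, beside 10% of all genes tested), and the median log2 fold change of the 11 was 0.07. By orientation, 0 of the 6 tested genes with a listed stretch were called and 1 of the 5 with a reverse stretch.

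Genes just below the criterion served as a comparison. With a longest stretch of 14 nucleotides, 29 genes were tested and 2 were called (6.90%), *TMEM9B-AS1* with a log2 fold change of 1.0 (adjusted p = 0.024 from edgeR) and *NFATC2IP* with -0.31 (adjusted p = 0.049). The next by p were *DDX60* (-0.53, adjusted p = 0.055), *S100PBP* (-0.32, adjusted p = 0.073) and *ABHD15* (-0.49, adjusted p = 0.075), none of which was called. *TMEM9B-AS1* is antisense to *TMEM9B*, and the strand setting of the counting is not given in the sources used here. With a longest stretch of 13 nucleotides, 14 of 119 tested genes were called (11.8%), and with 12 nucleotides 72 of 542 (13.3%), in each case in both directions. The medians of the log2 fold change were -0.03 at 14 nucleotides, 0.00 at 13 and -0.03 at 12. No trend with the length of the stretch was tested.

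Seed pairing is a separate criterion from the long stretch, and only 3′ UTRs of canonical transcripts were searched for it. The motifs were the 7 letters of each of the first 3 silencers that would pair with nucleotides 2 to 8 of a guide strand. ATTTTTC, of the reference bases at the site of silencer 1, occurred in 2 copies in *SMARCA2* and in 32.2% of 13453 UTRs. TATACGT of silencer 2, held by 2.68% of UTRs, and CTATCAC of silencer 3, held by 5.49%, occurred in none of the 4 genes, and *PGBD4*, *TEX261* and *AJUBA* held none of the 3 motifs. The motifs were searched in the sense of the mRNA only. Seeds of the opposite strand, which would pair with the stretches of *PGBD4*, *TEX261* and *AJUBA*, were not searched. The other silencers were not searched either, among them silencer 6, which shares the stretch of *AJUBA*. For these genes the search is therefore incomplete.

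The complexes and families to which the members belong were examined as lists. Of 29 SWI/SNF subunits, 28 were tested, and 5 (17.9%, beside 10% of all genes tested) were called higher and 0 lower by edgeR, with a median log2 fold change of 0.09. The log2 fold changes of 11 subunits were negative, and *SMARCD2* (-0.37, adjusted p = 0.063) and *BICRAL* (-0.26, adjusted p = 0.15) had negative values with an unadjusted p under 0.05. The higher subunits were *SMARCA4*, the alternative ATPase to *SMARCA2*, which rose by 0.43 on the log2 scale (6660 ± 736 to 8984 ± 365 normalized counts, adjusted p = 0.019 from edgeR), the core subunit *SMARCC1* (0.38), the subunit *SMARCE1* (0.76) and the accessory subunits *BCL7A* (0.65) and *BCL7B* (0.66). The count fell to 2 without knockdown replicate 1, 2 or 3 and without control replicate 1. Of the 5 piggyBac-derived genes, 4 were tested and 0 were called by edgeR or in any alternative setting, DESeq2 and limma-voom included, and 0 had an unadjusted p under 0.05. *PGBD1* had a log2 fold change of 0.22, *PGBD2* of 0.00 and *PGBD5* of -0.03.

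Of 38 genes of the COPII coat, its assembly factors and cargo receptors, 36 were tested, with 2 called higher and 3 lower, 13.9% in all beside 10% of all genes tested, and a median of -0.07. The higher genes were *TEX261* and *SEC31B* (0.48), which encodes an outer coat protein. The lower genes were the cornichon cargo receptors *CNIH2* (-1.57, from 95.8 ± 41.2 to 32.4 ± 7.23 normalized counts) and *CNIH1* (-0.37), and *ERGIC2* (-0.60), a protein cycling between the endoplasmic reticulum and the Golgi. This count depended on single cultures, at 0 without knockdown replicate 1, 2 without knockdown replicate 2, 1 without knockdown replicate 3, 1 without control replicate 1 and 9 without control replicate 2, and it was 2 with the replicate block.

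Among the 7 zyxin and ajuba LIM proteins, all tested, *LPP*, a protein of focal adhesions, rose by 0.88 on the log2 scale (910 ± 153 to 1669 ± 94.8 normalized counts, adjusted p = 0.0014 from edgeR), and the median of the list was the -0.17 of *AJUBA*. The count was 1 (14.3%, or 1 of 7 genes, beside 10% of all genes tested) and became 3 without control replicate 3. The log2 fold changes of 5 of the 7 were negative. Of these, *WTIP* (-0.53, adjusted p = 0.18) and *FBLIM1* (-0.34, adjusted p = 0.15) had an unadjusted p under 0.05 in edgeR. Among the 10 Hippo core kinases and effectors, 2 were called (20%), both lower. Over all genes tested, 10% were called in either direction and 4.64% lower. They were the coactivator *WWTR1* (-0.64) and the kinase cofactor *MOB1A* (-0.52). The log2 fold changes of all 10 were negative, with a median of -0.11, beside a median of -0.02 over all genes tested. Without knockdown replicate 1 or 3 the count was 1. The counts of all 5 lists are descriptions, without a test of a list against other genes.

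The patterns most like those of the members over the 6 libraries were found by Pearson correlation of log2 CPM (counts scaled to library size), as a description. *TEX261* was followed most closely by *TNIP1*, *SHMT1* and *TOP1MT* (r of 0.996 each), of which *TOP1MT*, the mitochondrial topoisomerase, was called (log2 fold change 0.79, adjusted p = 0.011 from edgeR). *SMARCA2* was followed by *FAM120B*, *CDHR5* and *TH2LCRR* (r from 0.990 to 0.993), *PGBD4* by *GPR89B*, *NIPAL2* and *PIKFYVE* (r from 0.979 to 0.995), and *AJUBA* by *CBX2* and *LOC613037* (r of 0.990 and 0.986), and none of these 8 genes was called. These values were picked from 14877 genes over 6 points that share their division into 2 groups, and no p is given.

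Genes beside the members were examined because reads of overlapping genes can be shared. *TEX261* overlaps *ANKRD53* on the other strand, which was not tested, and the protein-coding locus ENSG00000258881 on its own strand, which is not a row of the table under that name. *TEX261* also overlaps the lncRNA gene ENSG00000228384 on the other strand, and *AJUBA* overlaps ENSG00000259132 on its own. *SMARCA2* overlaps the lncRNA gene *SMARCA2-AS1* and the small nuclear RNA pseudogene *RNU2-25P*, both on the other strand. None of these 4 is a row of the table under that name. Next to *TEX261*, *NAGK*, a kinase of amino sugars, was called lower (log2 fold change -0.50, adjusted p = 0.044 from edgeR), and *ATP6V1B1* was not called (-0.32). Next to *SMARCA2*, 427558 bases away, the lipoprotein receptor gene *VLDLR* was called lower (-0.59, adjusted p = 0.0054). *EMC7*, 221 bases from *PGBD4* and on the opposite strand, had a log2 fold change of -0.13, and neither it nor *KATNBL1* (-0.31) was called. The neighbours of *AJUBA*, *C14orf93* (0.49) and *HAUS4* (0.38), were not called.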

How the data were processed

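RNA-seq reads of 6 HEK293 libraries were processed by the authors, who deposited whole-number counts of reads per gene without normalization. The submitters' processing notes name FastQC 0.11.9, Trim Galore 0.6.6, STAR 2.7.9a, featureCounts 2.0.1 and hg38, while the paper's methods give other STAR and featureCounts versions. The annotation, the strand setting and the handling of multi-mapping reads are not given in the sources used here.

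Counts were filtered with filterByExpr, scaled by TMM and compared by the robust quasi-likelihood F test of edgeR 4.0.16 without a block (R 4.3.3), with Benjamini-Hochberg adjustment over 14877 genes. Alternatives were DESeq2 1.42.0, limma-voom (limma 3.58.1), other scalings and filters, the replicate block and each culture left out. The fits were tested on simulated data. Silencers were matched exactly, at 12 nucleotides or more and in both orientations, to GENCODE release 44 and hg38 in Python 3.11.15. Table symbols were matched to GENCODE for 97.2% of the tested genes.

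Named genes were the 4 members, *BMS1P20*, the 5 other genes with the smallest p among those sharing at least 14 nucleotides, at most 5 called genes per list, the 3 most correlated genes per member, and genes overlapping or beside a member. A single result of 1 gene that this rule names is not reported here. The tested genes sharing at least 15 nucleotides were also named after their values were seen. So were *LDHC*, *SNX10*, *KIAA1715*, *SMARCD2*, *BICRAL*, *PGBD1*, *PGBD2*, *PGBD5*, *WTIP*, *FBLIM1* and the RNA gene with 20 shared nucleotides. The HEK293-expressed genes were given as levels. The members and lists were chosen with earlier results of these data known. The reference bases for silencer 1, the canonical transcript alone and the recount of the lists under each setting were added after seeing the data.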

Additional observations from a re-analysis of the deposited data

How the results depend on the processing

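Over 13 alternative settings, the signs of *SMARCA2* (log2 fold change 0.04 to 0.22 when 1 culture was left out) and *TEX261* (0.29 to 0.46) did not change, and *SMARCA2* was called in none. *TEX261* was called in 8. With the replicate block it was 0.36 (adjusted p = 0.071 from edgeR), so that 0 members were called, and with 1 culture left out 0 to 1 were called. The deviations of cultures with the same replicate number correlated at -0.20, -0.11 and -0.04, and those with different replicate numbers at -0.07 to 0.16. Knockdown replicate 1 and control replicate 3, which both carry the culture number 1, correlated at -0.01. Such correlations cannot show whether cultures were handled in pairs, since pairing need not leave a shared deviation. The sign of *PGBD4* turned around its value of -0.0017. It was 0.0018 with DESeq2's size factors, 0.0087 with library totals, 0.0042 with at least 10 counts in every library, 0.0018 in the DESeq2 Wald test, 0.019 in limma-voom, 0.0079 with the replicate block and -0.14 to 0.14 with 1 culture left out. *AJUBA* ranged from -0.40 to 0.029, positive only without control replicate 2. Over all genes, 690 were called lower and 804 higher. Leaving out 1 culture gave 233 to 1238 lower and 289 to 1274 higher genes, lowest without knockdown replicate 3 and knockdown replicate 2 and highest without control replicate 2. The cause was not tested. *PGBD4* and *AJUBA*, the less deeply counted members, had SEs of 0.19 and 0.22, against 0.10 for each of the other 2.

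The number of tested genes sharing a stretch was 701 at 12 nucleotides, 159 at 13, 40 at 14 and 1 at 16. Of these, 89 (12.7%), 17 (10.7%), 3 (7.5%) and 0 were called, beside 10% of all genes tested. With introns it was 115, of which 13 (11.3%) were called. In protein-coding transcripts alone it was 7 and in canonical transcripts alone 4, with 0 called in both. With silencers matching the genome in full it was 10, with 1 called. With the reference bases of silencer 1 it was 13, with 2 called, *TEX261* and *LDHC* (log2 fold change 1.20, adjusted p = 0.032 from edgeR). *LDHC* had low counts, with means of 18.9 in the control and 43.2 in the knockdown group. The setting also added *SNX10* (-0.39, adjusted p = 0.078 from edgeR) and *KIAA1715* (0.08), which were not called.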
